A study of Mus musculus with 20 samples.

Results

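Of the 20 mouse breast tumors in the series, 12 were compared here: the 6 with the highest and the 6 with the lowest level of Erbb2, the gene of the receptor tyrosine kinase ErbB2 (HER2 in human, neu in rat). The groups were chosen by the measured level of Erbb2 itself, as CPM (read counts scaled to a common library total), with Yam1 and AY036118, 2 entries of the ribosomal RNA locus that held up to 27.7% of a library, left out of the total. All 20 tumors arose in female [BALB/c-neuT x FVB/J] F1 mice, bred from BALB/c fathers that carried the neuT transgene and wild-type FVB/J mothers, so the high and the low tumors shared 1 genotype and there was no treatment. NeuT is an activated rat form of the same receptor, placed under a mouse mammary tumor virus promoter that drives it in mammary epithelium. Each library came from a small frozen piece of 1 tumor of 1 mouse, taken when any tumor of that mouse had reached the size limit, and the labels give no ages. The sample names call the tumors Lo or Hi with a number, without saying what these words stand for, and 3 of 6 tumors were Lo in the high group and 3 of 6 in the low group. No normal mammary tissue and no tumor without the transgene was compared.

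ErbB2 binds no ligand of its own. It pairs with the related receptors EGFR, ErbB3 and ErbB4, which bind the EGF family and the neuregulins, and the pair signals through RAS and ERK and through PI3 kinase and AKT to growth and division. The protein depends on the HSP90 chaperone, and is held back by inhibitors such as ERRFI1 and LRIG1. Gain of the gene drives a class of human breast cancer, and the mutated rat form drives the tumors of this mouse. The rat and mouse genes are alike in sequence, so reads of the transgene may have been counted as mouse Erbb2. In these gene counts the 2 sources cannot be told apart, and every Erbb2 value below may hold both.

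Erbb2 (ENSMUSG00000062312, mm10 chromosome 11, bases 98412470 to 98437716) varied little between the tumors. Its level was 289 CPM in Hi_10, 272 CPM in Hi_4, 264 CPM in Lo_9, 259 CPM in Lo_8, 257 CPM in Lo_1 and 255 CPM in Hi_5, the high group. It was 219 CPM in Hi_1, 215 CPM in Hi_7, 207 CPM in Hi_2, 203 CPM in Lo_2, 199.8 CPM in Lo_3 and 173 CPM in Lo_4, the low group. The 8 tumors between lay from 219.7 to 249 CPM. The highest tumor stood 1.67-fold above the lowest, and the mean of the high group (266 ± 12.7 CPM, SD, n = 6) was 1.31-fold that of the low group (203 ± 16.3 CPM, SD, n = 6). These values chose the groups and are a description. The upper border fell between Hi_5 and Lo_7, 6.22 CPM apart, and the lower one between Hi_11 and Hi_1, 0.71 CPM apart. A tumor's Erbb2 count was 6187 to 14773 reads. With a second scaling of the libraries (TMM), Lo_11 took the place of Lo_8 in the high group and Hi_3 that of Hi_1 in the low group. The plot of Erbb2 by tumor shows a slope without a step at either border.

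**Figure D1:**
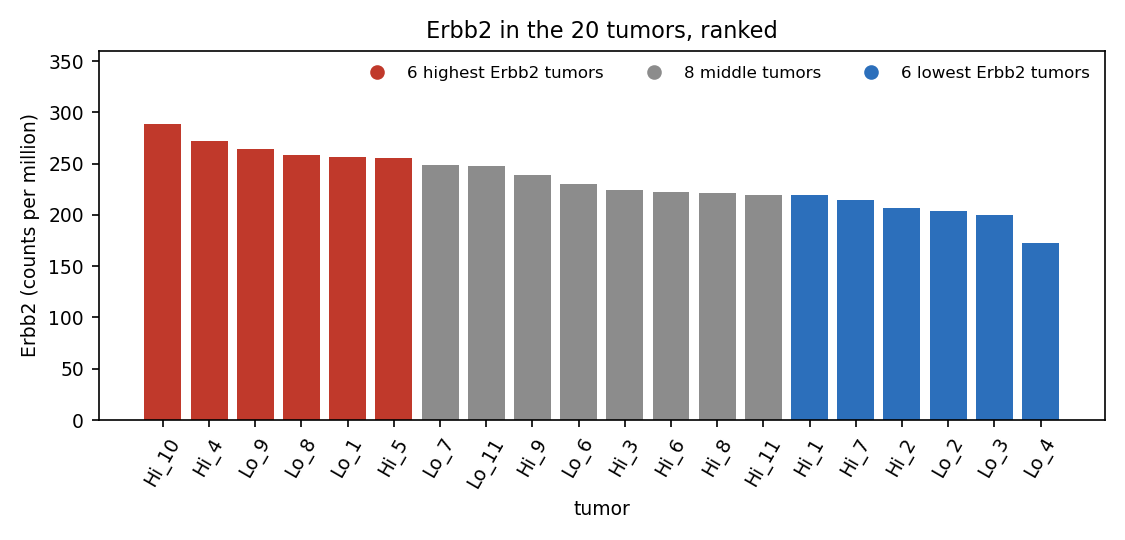
Bars give the Erbb2 level in CPM of each of the 20 tumors, ranked, with the 6 highest in red, the 8 middle tumors in gray and the 6 lowest in blue. The levels run from 289 CPM in Hi_10 to 173 CPM in Lo_4 with no gap between the groups.

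The libraries held 38765682 to 65465755 counts, and 0 of the 3 library measures tested passed the threshold between the groups. The total count was 52581300 ± 4885660 in the high and 50113000 ± 9935450 in the low group (SD, n = 6 each, two-sided exact permutation test, adjusted p = 1). The ribosomal RNA locus took 15.1% ± 5.64 of counts in the high and 15.3% ± 5.55 in the low group (SD, n = 6 each, exact permutation test, adjusted p = 1). A count was found for 25195 ± 229 genes in the high and 24505 ± 790 genes in the low group (SD, n = 6 each, exact permutation test, adjusted p = 0.32). Epithelial markers were high in all 12 tumors, as their label as breast tumors implies: Epcam, an adhesion molecule of epithelial cells, lay between 1035 and 1480 CPM.

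Across all other genes, the high and low groups differed by less than the multiple-testing threshold. Of 18919 genes tested with edgeR's quasi-likelihood test, 0 (0%) had an adjusted p under 0.05, and the smallest adjusted p was 0.0683. At an unadjusted p under 0.05, 1529 genes were higher (8.08%) and 1530 lower (8.09%) in the high group, and scaling by library size alone turned that split into 2158 higher and 767 lower. With DESeq2, a second count model, 745 genes passed, 344 of them higher (1.82%) and 401 lower (2.12%), and 2596 were given no adjusted p. In 158 genes (0.835%) every high tumor lay above every low tumor, and in 224 (1.18%) every high tumor lay below. The median log2 fold change over all genes was 0.00.

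When the Erbb2 level was used as a gradient over all 20 tumors instead of as groups, 758 of 20462 genes had an adjusted p under 0.05 in edgeR's test. Of these, 429 (2.1%) rose and 329 (1.61%) fell with Erbb2. The gradient shares its tumors with the comparison of groups and is no independent test of it. The groups tested 743 of the 758 genes, and all 743 had the same sign there, 725 of them with an unadjusted p under 0.05. The count changed with the tumors included: without Lo_4 it was 119, without Hi_10 it was 120, without Lo_9 it was 268, without Lo_11 it was 1030 and without Lo_3 it was 1158. It was 413 without Lo_7, 423 without Lo_8, 427 without Hi_4, 482 without Lo_1 and 504 without Lo_2. Within the 9 Lo tumors 0 genes passed (2307 at an unadjusted p under 0.05) and within the 11 Hi tumors 0 (2272). A slope below is the log2 change of a gene for a doubling of Erbb2, which is more than the whole range seen, and genes are said to rise or fall only where they passed in this gradient.

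The partners of ErbB2 and their ligands did not separate the groups. Per kilobase of transcript, Erbb3 had a median of 75.9 CPM over the 20 tumors (60.9 to 86.9), Erbb2 44.7 CPM (34.8 to 55.2), Egfr 6.10 CPM (4.20 to 9.48) and Erbb4 0.646 CPM (0.252 to 1.61). Erbb3, the kinase-poor receptor that binds neuregulins and is the main partner of ErbB2, had 399.6, 459.9 and 503 CPM (lowest, median and highest) in the high group and 406, 444 and 523 CPM in the low group. The groups overlapped over nearly the whole range, with a log2 fold change of -0.01 ± 0.08 (SE, adjusted p = 0.984). Egfr, the EGF receptor, had a log2 fold change of 0.06 ± 0.16 (SE, adjusted p = 0.891). Erbb4, a neuregulin receptor of the differentiating mammary gland, had 3.56, 8.68 and 16.05 CPM in the high group and 3.12, 4.69 and 12.3 CPM in the low group, with a log2 fold change of 0.55 ± 0.39 (SE, adjusted p = 0.512). Of 14 receptors and ligands listed, 12 passed the filter on low counts, 4 were above and 8 below 0, and 0 had an unadjusted p under 0.05, with a median log2 fold change of -0.07. The 2 that did not pass the filter were Ereg and Nrg3.

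The genes that carry the signal inward or hold it back also lay near 0. Of 19 adaptors and kinases, 18 were tested, with a median log2 fold change of -0.04. All 9 inhibitors of the receptors were tested and lay between -0.08 and 0.12, and 0 had an unadjusted p under 0.05. Of 17 targets and feedback inhibitors of ERK, 10 were above and 7 below 0, with a median of 0.03. Dusp6, a phosphatase that ERK induces against itself, had 641, 670.4 and 955 CPM in the high group and 635, 714 and 1018 CPM in the low group, with a log2 fold change of -0.05 ± 0.13 (SE, adjusted p = 0.89). Of the 17 genes, 1 was higher at an unadjusted p under 0.05, against 8.08% of all genes. In the gradient 1 of the 17 rose, against 2.1% of all genes. In both cases it was Spred3, an inhibitor of RAS signaling, with a log2 fold change of 0.53 between the groups (edgeR, adjusted p = 0.124). It had 15.5, 22.1 and 28.0 CPM in the high group and 12.4, 14.99 and 20.3 CPM in the low group, and rose in the gradient (slope 1.31 ± 0.25, SE, adjusted p = 0.0136, 0.00519 to 0.373 over the alternatives). Of 9 transcription factors that act on the Erbb2 promoter, 8 were tested, with log2 fold changes from -0.18 (Yy1, adjusted p = 0.283) to 0.15 (Tfap2b).

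The chaperones of the receptor were on the low side in the high Erbb2 tumors. All 6 had log2 fold changes below 0, from -0.41 to -0.12, with a median of -0.15. Of the 6, 1 had an unadjusted p under 0.05, against 8.09% of all genes in that direction. In the gradient 1 of the 6 fell, against 1.61% of all genes. In both cases it was Hsp90aa1. Hsp90aa1, the inducible cytosolic HSP90, had 191, 210.2 and 275 CPM in the high group and 262, 303 and 319.7 CPM in the low group, where only Lo_9 of the high tumors reached into the range of the low group. It fell in the gradient (slope -0.90 ± 0.18, SE, adjusted p = 0.0147, 0.0105 to 0.359 over the alternatives). The groups gave a log2 fold change of -0.41 ± 0.09 (SE, adjusted p = 0.0862).

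**Figure D2:**
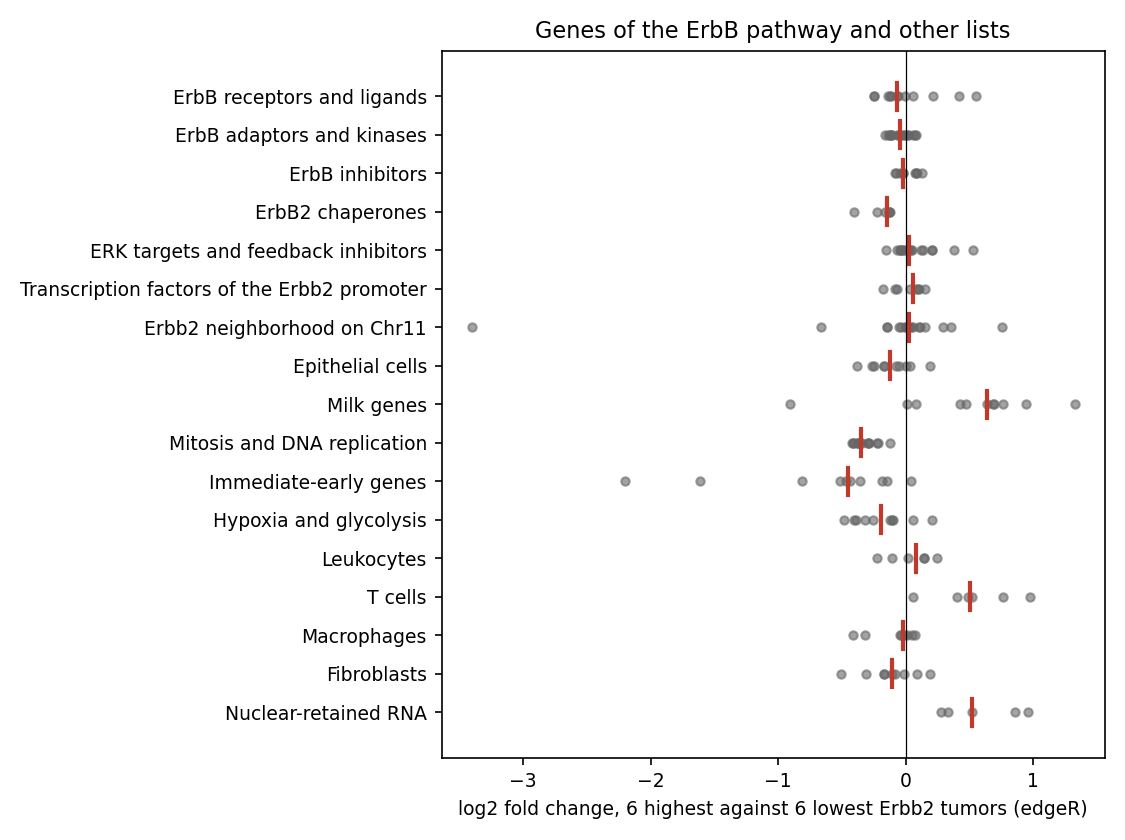
Each gray point is the log2 fold change of 1 gene between the 6 highest and 6 lowest Erbb2 tumors, red bars are list medians, and rows are gene lists. The ErbB lists center near 0, genes of mitosis and DNA replication all lie below 0 (median -0.35) and nuclear-retained RNAs all lie above 0 (median 0.52).

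Among the genes with the smallest p that were lower in the high group were Eif2s1, Rrm1, Npm1 and Pola1, and in each of them every high tumor lay below every low tumor. None passed in the comparison of groups. They were picked by p in that comparison, so their separation is no further support. Eif2s1 (chromosome 12, bases 78861819 to 78887010), the alpha subunit of the initiation factor that brings the first tRNA to the ribosome, had 75.9, 77.5 and 91.7 CPM (lowest, median and highest) in the high group and 97.9, 106 and 116 CPM in the low group. Its log2 fold change was -0.43 ± 0.07 (SE, adjusted p = 0.0683), and it fell in the gradient (adjusted p = 0.00893, 0.00519 to 0.349 over the alternatives). Npm1 (chromosome 11, bases 33152287 to 33163206) encodes nucleophosmin, a nucleolar protein of ribosome assembly. It had 357, 373 and 416 CPM in the high group and 462, 490.4 and 546 CPM in the low group, a log2 fold change of -0.39 ± 0.07 (SE, adjusted p = 0.0684).

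Rrm1 and Pola1 make or use DNA precursors. Rrm1 (chromosome 7, bases 102441695 to 102469771), the large subunit of ribonucleotide reductase, had 90.7, 99.6 and 106 CPM in the high group and 119, 129.5 and 139.6 CPM in the low group. Pola1 (chromosome X, bases 93304767 to 93632155), the catalytic subunit of DNA polymerase alpha, had 24.0, 27.0 and 29.2 CPM in the high group and 31.6, 37.0 and 41.2 CPM in the low group. The middle tumors were not held between the groups: Hi_8 had 81.3 CPM of Rrm1 and 21.4 CPM of Pola1, below every high tumor. Npm1 and Pola1 fell in the gradient (adjusted p = 0.0109 and 0.0403, up to 0.414 over the alternatives), while Rrm1 did not pass it (adjusted p = 0.0654).

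Genes of mitosis and DNA replication had lower values in the high Erbb2 tumors, and 0 of 14 passed between the groups in edgeR's test. All 14 tested had log2 fold changes below 0, with a median of -0.35 and a range of -0.42 to -0.12, and 9 of 14 had an unadjusted p under 0.05 against 8.09% of all genes in that direction. Their summed level was 758, 908 and 1122 CPM (lowest, median and highest) in the high group and 1081, 1164 and 1293 CPM in the low group, where Lo_9 and Lo_8 of the high tumors overlapped the low ones. Of the 14, 1 did not overlap between the groups, against 1.18% of all genes in that direction. It was Ccna2, the cyclin of S phase and G2. Its level was 59.2, 74.2 and 85.5 CPM in the high group and 86.0, 102 and 104 CPM in the low group (log2 fold change -0.40 ± 0.09, SE, adjusted p = 0.0862). Mcm5, a part of the replicative helicase, had a log2 fold change of -0.42 ± 0.10 (SE, adjusted p = 0.0933), Pcna, the sliding clamp, -0.37 ± 0.11 (SE, adjusted p = 0.146) and Top2a, topoisomerase II alpha, -0.36 ± 0.11 (SE, adjusted p = 0.135). Mki67, the Ki-67 antigen of cycling cells, differed less, at -0.21 ± 0.12 (SE, adjusted p = 0.377). With 10 tumors against 10, the median was -0.10 and 1 gene was lower at an unadjusted p under 0.05, against 8.05% of all genes in that setting. The tumor of the lowest summed level, Hi_8 with 644 CPM, stood in the middle group, and 0 of the 14 genes passed in the gradient.

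Ribosomal protein and proteasome genes, 2 lists chosen after the values were seen, lay lower in the high group as well. Of 82 cytosolic ribosomal protein genes tested, 81 were below 0, with a median log2 fold change of -0.25, and 52 had an unadjusted p under 0.05 against 8.09% of all genes in that direction. Their summed level was 25362, 28866 and 32650 CPM in the high group and 30691, 33501 and 38731 CPM in the low group. All 31 proteasome subunits were below 0, with a median of -0.19, and 16 had an unadjusted p under 0.05, against the same 8.09%. In the gradient 10 of the 82 and 10 of the 31 fell, against 1.61% of all genes. Psmc6, an ATPase of the regulatory particle of the proteasome, had 93.6, 105 and 116 CPM in the high group and 114, 131 and 142 CPM in the low group, and fell with a slope of -0.85 ± 0.14 (SE, adjusted p = 0.00893, 0.00521 to 0.349 over the alternatives). DESeq2 called 14 of the 82 and 8 of the 31 as lower, and 3 of the 14 mitosis genes, against 2.12% of all genes. Many ribosomal protein genes have near-identical pseudogene copies that can share reads, so single values in that list are uncertain.

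**Figure D3:**
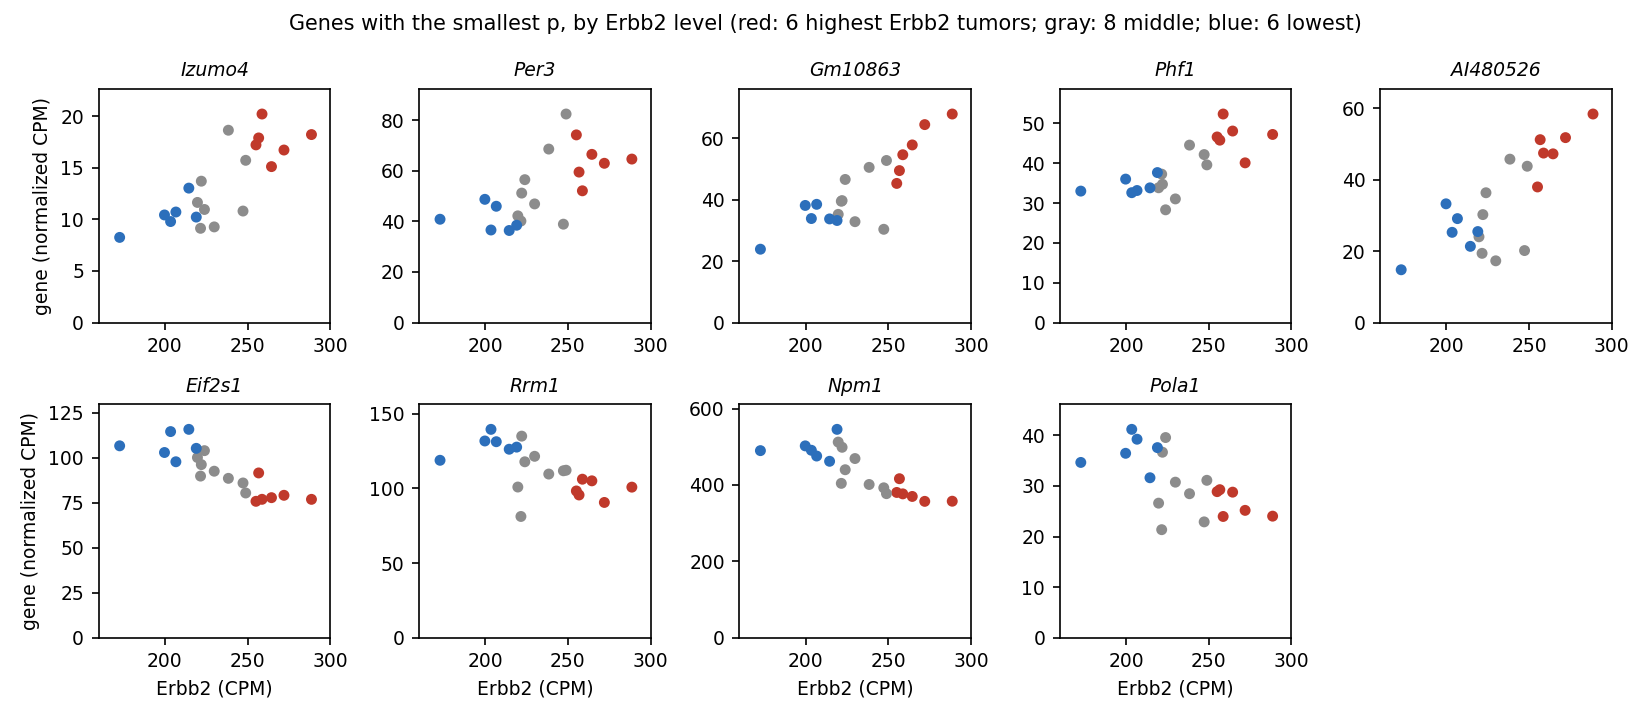
Each panel plots the normalized CPM of 1 gene against the Erbb2 CPM of the 20 tumors, with the 6 highest Erbb2 tumors in red, the 8 middle in gray and the 6 lowest in blue. In the upper 5 genes every red point lies above every blue point, and in the lower 4 every red point lies below.

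Among genes higher in the high group, the 5 with the smallest p were Izumo4, Per3, Gm10863, Phf1 and AI480526. In each, every high tumor lay above every low tumor, and all 5 rose in the gradient (adjusted p from 0.00378 to 0.0293, up to 0.443 over the alternatives). The 5 were picked by p in this comparison and the gradient shares its tumors, so neither is further support. AI480526, a gene of unassigned function (chromosome 5, bases 123133723 to 123141666), had 38.0, 49.3 and 58.4 CPM (lowest, median and highest) in the high group and 14.8, 25.4 and 33.2 CPM in the low group. Its log2 fold change was 0.98 ± 0.16 (SE, adjusted p = 0.0683), and its span overlaps another transcribed entry. Gm10863, a predicted gene (chromosome 15, bases 79166041 to 79227524), had 45.3, 56.3 and 67.9 CPM in the high group and 23.9, 33.8 and 38.5 CPM in the low group. Izumo4 (chromosome 10, bases 80702693 to 80705382), of the family of sperm protein Izumo1, had 15.1, 17.6 and 20.2 CPM in the high group and 8.26, 10.3 and 13.04 CPM in the low group.

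Phf1 and Per3 have known roles in the nucleus. Phf1 (chromosome 17, bases 26933127 to 26937890), a partner of the Polycomb complex that methylates histone H3, had 40.1, 46.9 and 52.4 CPM in the high group and 32.6, 33.5 and 37.7 CPM in the low group, a log2 fold change of 0.44 ± 0.07 (SE, adjusted p = 0.0683). Per3 (chromosome 4, bases 151003652 to 151044665), a repressor of the circadian clock, had 52.0, 63.7 and 74.1 CPM in the high group and 36.4, 39.6 and 48.7 CPM in the low group, a log2 fold change of 0.62 ± 0.09 (SE, adjusted p = 0.0683). The middle tumor Lo_7 had the highest level of Per3, 82.4 CPM, and the span of Per3 overlaps Camta1. Other clock genes, looked at because Per3 was named, did not pass: Per2 had a log2 fold change of 0.38 ± 0.11 (SE, adjusted p = 0.139) and Per1 of 0.41 ± 0.21 (SE, adjusted p = 0.345). The hour of death is not in the labels, and its part in these values was not tested.

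RNAs that stay in the nucleus had log2 fold changes above 0, and 0 of 5 passed between the groups in edgeR's test. Their median was 0.52, and 2 of 5 had an unadjusted p under 0.05 against 8.08% of all genes. Neat1, the scaffold RNA of paraspeckles, had 916, 1488 and 2089.7 CPM in the high group and 494, 807 and 1050.3 CPM in the low group, with Hi_5 of the high tumors within the range of the low ones. It rose in the gradient (slope 2.35 ± 0.51, SE, adjusted p = 0.0187, 0.00652 to 0.445 over the alternatives). Meg3, an imprinted noncoding RNA, had a log2 fold change of 0.86 ± 0.21 (SE, adjusted p = 0.0943) and Malat1, an RNA of nuclear speckles, 0.52 ± 0.26 (SE, adjusted p = 0.342). The summed level of the 5 RNAs was 4980, 7359 and 9050.2 CPM in the high group and 3004, 4911 and 7186 CPM in the low group, so the groups overlapped. With the mean score of these RNAs as a further term, 0 genes passed in the gradient (2428 at an unadjusted p under 0.05) and the mitosis list had a median of -0.43 between the groups. With the epithelial score as a further term, the median of the nuclear RNAs was 0.07. The summed epithelial markers, given below, did not overlap between the groups, so that fit cannot tell the Erbb2 group from the epithelial level.

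The base composition and length of genes moved with the comparison. Over 14205 genes of a mean log2 CPM of at least 1, cut into 5 equal groups, the median log2 fold change was -0.10 in the group of lowest GC content (up to 44.0% of bases) and 0.06 in the group of highest GC content (from 55.6%). Across 5 groups of length it went from -0.09 in genes of up to 1824 bases to 0.01 in genes of at least 6309 bases. The 429 genes that rose in the gradient had a median GC content of 54.5% and a median length of 3901 bases, and the 329 that fell 43.5% and 2606 bases, against 49.7% and 2962 bases over all genes. Erbb2 itself has a GC content of 57.3% and a length of 5210 bases, and so falls among the GC-rich and longer genes. With a GC and length trend of each tumor removed, 248 genes passed in the gradient, 214 of them among the 758, and the medians of the mitosis, ribosomal protein and proteasome lists between the groups were -0.31, -0.20 and -0.16.

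**Figure D4:**
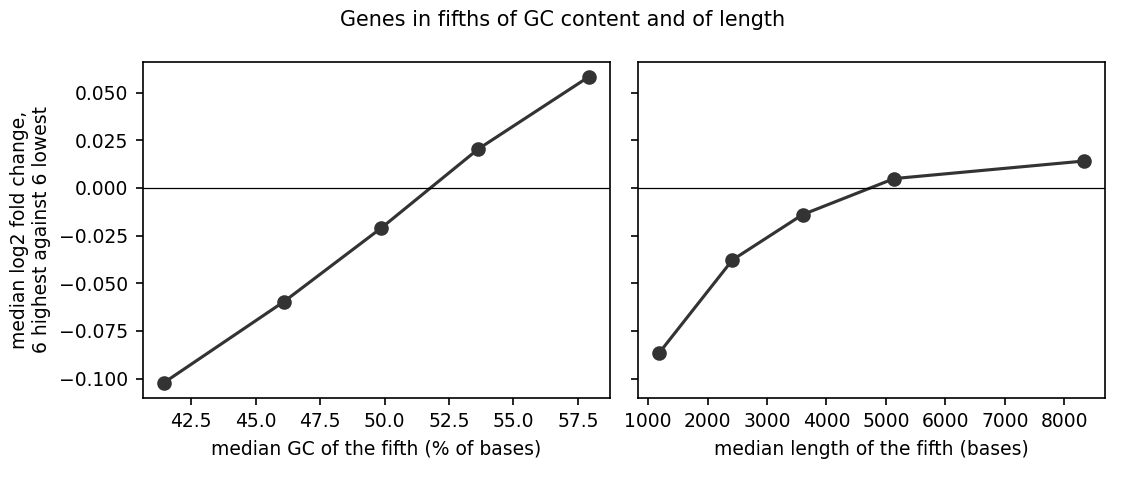
Points give the median log2 fold change between the 6 highest and 6 lowest Erbb2 tumors for genes in 5 equal groups of GC content (left) and of length (right), each at the median of its group. The median goes from -0.10 to 0.06 with GC content and from -0.09 to 0.01 with length.

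RNA of skeletal muscle differed between the groups by the largest folds, through 3 low tumors, while the other low tumors overlapped the high group. The 5 tested of 6 muscle markers had log2 fold changes from -6.53 to -4.57. All 5 had an unadjusted p under 0.05, against 8.09% of all genes in that direction, and none passed the adjusted threshold in edgeR's test. DESeq2 called all 5 as lower, against 2.12% of all genes. The summed level of the markers was 583 CPM in Lo_4, 357 CPM in Hi_1 and 89.3 CPM in Lo_2. It was 5.53 CPM or less in the other 3 low tumors and 1.52 to 4.08 CPM in the 6 high tumors. In the middle group 6 of 8 tumors were above 10 CPM, up to 1009 CPM in Hi_6. Acta1, the actin of skeletal muscle, had 0.426 to 0.954 CPM in the high group and 0.604 to 206 CPM in the low group. Tcap, a titin-binding protein of muscle whose gene lies near Erbb2, followed with 11.9 CPM in Lo_4, 4.23 CPM in Hi_1 and 1.66 CPM in Lo_2, and at most 0.465 CPM in the other tumors compared. With the 3 low tumors left out, the median of the muscle list was -0.07, that of the mitosis list -0.30, that of the ribosomal proteins -0.16 with 7 genes lower at an unadjusted p under 0.05 (4.05% of all genes in that setting), that of the proteasome -0.16 and that of nuclear RNAs 0.42. With all 9 tumors above 10 CPM left out of the gradient, 0 genes passed (2085 at an unadjusted p under 0.05).

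Immediate-early genes, which rise within minutes of a growth signal or of stress to tissue, had a wider range of summed levels in the low group than in the high group. Of 10, 9 were below 0, with a median log2 fold change of -0.45, and 4 had an unadjusted p under 0.05 against 8.09% of all genes in that direction. Fos, a subunit of the AP-1 factor, had 37.0, 56.1 and 94.8 CPM in the high group and 34.5, 156 and 466 CPM in the low group, where Lo_4 and Lo_2 were as low as the high tumors. Fosb had 1.01, 6.26 and 24.6 CPM in the high group and 2.09, 34.5 and 160.1 CPM in the low group. The summed level of the list ranged from 637 to 799 CPM in the high and from 552 to 2100.4 CPM in the low group, with the top value in Hi_1 and with Lo_4 and Lo_2 below every high tumor. None of the 10 passed in the gradient, and without the 3 low tumors that held muscle RNA 6 of them were lower at an unadjusted p under 0.05, against 4.05% of all genes in that setting.

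**Figure D5:**
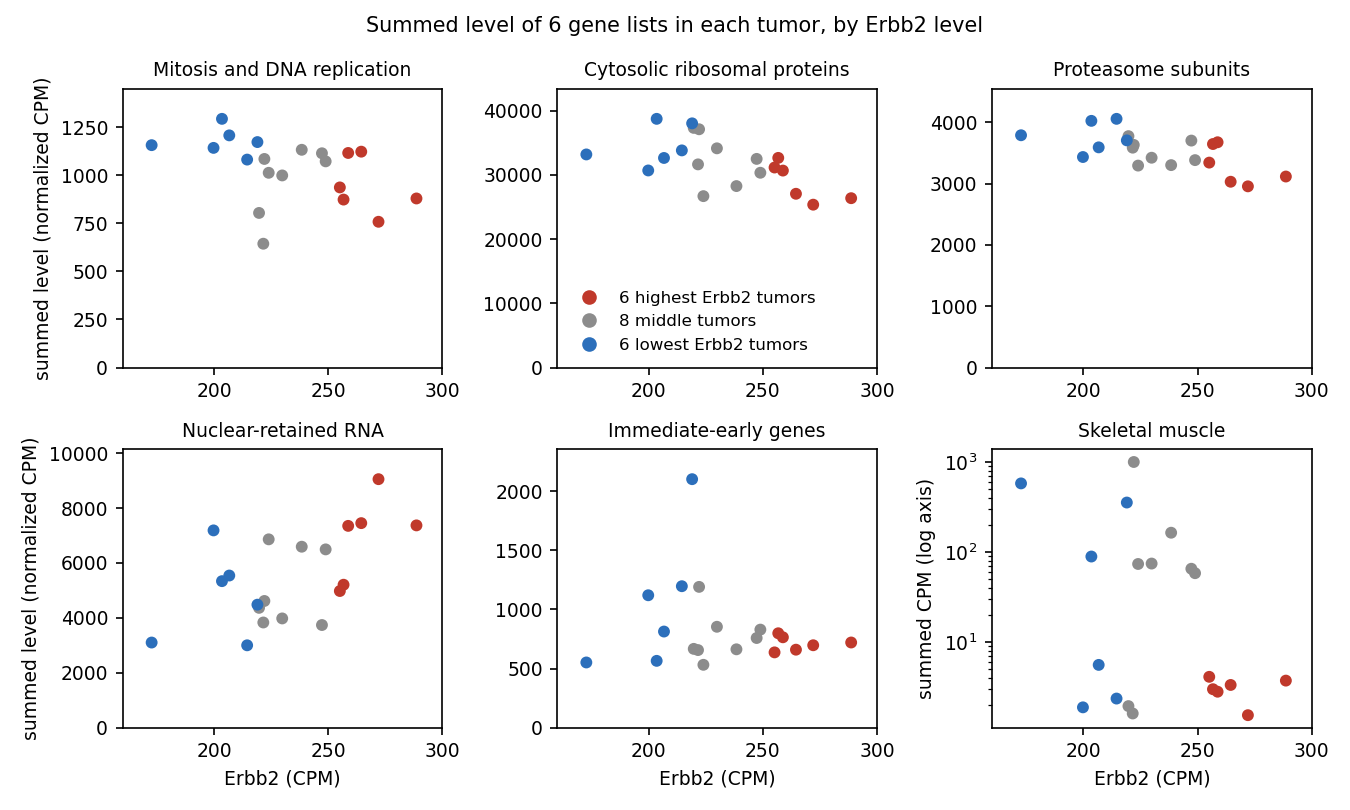
Each panel plots the summed normalized CPM of 1 gene list against the Erbb2 CPM of the 20 tumors (red, 6 highest; gray, 8 middle; blue, 6 lowest), on a log axis for skeletal muscle. Mitosis, ribosomal protein and proteasome sums are lower toward high Erbb2 with overlapping groups, nuclear RNA is higher, and 3 of 6 low tumors stand far above every high tumor in muscle RNA.

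Summed markers of the cell types named here overlapped between the groups, except those of epithelial and B cells. Sums were formed for every gene list, and how many would separate the groups by chance was not tested. The summed level of 10 epithelial markers was 3748, 4166 and 4322 CPM in the high group and 4420.4, 4581 and 4933 CPM in the low group, so all 6 high tumors lay below all 6 low tumors. The middle tumors ran past both groups, from 3532 CPM in Hi_3 to 5651 CPM in Hi_11. When ranked by TMM-normalized CPM, Lo_11 (5372 CPM) joined the high group and Hi_3 the low group, and the sums overlapped. Of the 10 markers, 8 were below and 2 above 0. Alone, 0 of them separated the groups, against 1.18% of all genes lower and 0.835% higher. At an unadjusted p under 0.05, 1 was lower, against 8.09% of all genes. Among the markers Krt7, a keratin of simple epithelia, had a log2 fold change of -0.38 ± 0.11 (SE, adjusted p = 0.135), and Epcam of -0.17 ± 0.09 (SE, adjusted p = 0.342). In such bulk samples fewer cells of a type and less RNA per cell cannot be told apart. Leukocyte markers summed to 102 to 149.5 CPM in the high and 88.9 to 148 CPM in the low group, fibroblast markers to 1168 to 2232 CPM and 851 to 3083 CPM, and macrophage markers to 439 to 657 CPM and 447 to 666 CPM. T cell markers summed to 3.74 to 9.67 CPM in the high and 3.70 to 7.36 CPM in the low group, and all 6 tested were above 0. B cell markers, of which 2 of 4 passed the filter, summed to 0.876 to 1.51 CPM in the high and 0.63 to 0.796 CPM in the low group, without overlap. These sums are low, and 0 of the 2 tested genes separated the groups alone, against 0.835% of all genes higher. In the middle tumors the B cell sums ran from 0.580 CPM in Lo_6 to 1.21 CPM in Hi_6. Of the T cell markers Cd4, the co-receptor of helper T cells, had a log2 fold change of 0.52 ± 0.21 (SE, adjusted p = 0.244). Ciita, the regulator of MHC class II genes, had 8.12, 9.78 and 13.9 CPM in the high group and 5.66, 5.99 and 9.48 CPM in the low group (log2 fold change 0.57 ± 0.17, SE, adjusted p = 0.146). The part of these cell types in the other results was not tested. With the epithelial score as a further term the mitosis list had a median of -0.41. The epithelial sums did not overlap between the groups, so that fit cannot tell the Erbb2 group from the epithelial level.

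Among milk genes and genes of hypoxia and glycolysis, 0 passed the adjusted threshold between the groups in edgeR's test. Of 11 milk genes, 10 were above 0 with a median log2 fold change of 0.64, and 0 had an unadjusted p under 0.05. Csn2, beta-casein, had 68.4, 368 and 923 CPM in the high group and 85.8, 288 and 496 CPM in the low group, so that its range within a group exceeded the gap between them. With 10 tumors against 10 the median of the milk genes turned to -0.20. Of 10 genes of hypoxia and glycolysis, 8 were below 0 with a median of -0.19, and 3 were lower at an unadjusted p under 0.05, against 8.09% of all genes. Pgk1, phosphoglycerate kinase, had a log2 fold change of -0.48 ± 0.19 (SE, adjusted p = 0.226) and Ldha, lactate dehydrogenase, of -0.32 ± 0.14 (SE, adjusted p = 0.265). Genes of fatty acid and cholesterol synthesis centered at 0.00, with 6 of 12 on each side.

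The neighbors of Erbb2 on chromosome 11 did not follow it as a block. Of 21 genes listed around it, 18 were tested, with a median log2 fold change of 0.02. Grb7, an adaptor that is amplified with ERBB2 in human tumors, had 51.0, 66.2 and 76.3 CPM in the high group and 47.7, 59.0 and 70.8 CPM in the low group, a log2 fold change of 0.11 ± 0.12 (SE, adjusted p = 0.691). Mien1, whose end overlaps that of Erbb2, lay the other way at -0.14 ± 0.08 (SE, adjusted p = 0.387). Thra, a thyroid hormone receptor, had a log2 fold change of 0.29 ± 0.11 (SE, adjusted p = 0.202) and Nr1d1, a clock gene that overlaps it, of 0.36 ± 0.20 (SE, adjusted p = 0.397). Within 1 Mb on each side, 63 genes were tested, of which 42 were above and 21 below 0, with a median of 0.06. At an unadjusted p under 0.05, 9 of the 63 were higher and 7 lower, against 8.08% and 8.09% of all genes.

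Of these 63 genes, 4 rose in the gradient, against 2.1% of all genes: Gsdma3, a pore-forming gasdermin, Cacnb1, a calcium channel subunit, Srcin1, an inhibitor of the SRC kinase, and Gm11611, whose span lies within Srcin1. They were singled out after their values were seen. Gsdma3 had 7.42, 14.3 and 21.4 CPM in the high group and 3.49, 6.86 and 11.3 CPM in the low group, and its slope was 2.90 ± 0.66 (SE, adjusted p = 0.0222, 0.011 to 0.48 over the alternatives). All 4 lay at least 207 kb from Erbb2, beyond neighbors such as Grb7 and Mien1 that did not pass.

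The dosage of whole chromosomes was read as the median level of their genes against all autosomal genes. Chromosome 11, which carries Erbb2, had a log2 difference of 0.00167 between the groups (-0.00138 ± 0.0354 in the high and -0.00306 ± 0.017 in the low group, SD, n = 6 each, exact permutation test, adjusted p = 0.965). Chromosome 7, on which the transgene lies, had a difference of 0.0238 (0.0154 ± 0.0208 and -0.00834 ± 0.0282, SD, n = 6 each, exact permutation test, adjusted p = 0.408). Chromosome 4 varied most among the tumors, with 0.0588 ± 0.175 in the high and -0.0441 ± 0.162 in the low group (SD, n = 6 each, exact permutation test, adjusted p = 0.503). The smallest adjusted p of the 20 chromosomes was 0.245, for chromosomes 12, 13 and 14, with differences of -0.0707, -0.0603 and -0.0301. Eif2s1 and Hsp90aa1 lie on chromosome 12 and Psmc6 on 14, and the part of these chromosomes in their values was not tested.

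The genes whose levels ran most closely with Erbb2 over the 20 tumors were named as a description. Pearson's r was 0.883 for Cuedc1 (Spearman's rho 0.866), then 0.846 for Iqsec2, 0.836 for Elac1, 0.834 for Gm10863, 0.817 for Gm16159, 0.816 for Nrbp2, 0.808 for Mark2, 0.805 for Flad1, 0.803 for Zer1 and 0.801 for Dtx3. Without Hi_10 and Lo_4, the tumors farthest from the median of Erbb2, these 10 values were 0.647 to 0.81. Cuedc1, of a family with a ubiquitin-binding CUE domain, had 46.2, 50.1 and 55.5 CPM in the high group and 34.7, 39.0 and 45.1 CPM in the low group, with r of 0.903 within the 9 Lo tumors and 0.881 within the 11 Hi tumors. Its slope in the gradient was 0.90 ± 0.14 (SE). The slope and the r within Lo and Hi come from the same 20 tumors that picked Cuedc1 out, and are no further support. Mark2, a kinase of cell polarity, and Nrbp2, a pseudokinase, are spread over other chromosomes, as are the rest but Cuedc1.

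Running most strongly against Erbb2 were Ak6 (r = -0.877, rho = -0.881), Sarnp (r = -0.858), Gtpbp4 (r = -0.851), Psmc6 (r = -0.846) and Kpna3 (r = -0.845). Ak6, an adenylate kinase of ribosome maturation whose span overlaps Taf9 and Rad17, had 40.8, 43.8 and 46.0 CPM in the high group and 50.2, 54.9 and 59.3 CPM in the low group. Gtpbp4 is a GTPase of ribosome assembly, Sarnp a protein of mRNA export and Kpna3 an importin of nuclear transport. Without Hi_10 and Lo_4 the 5 values were -0.876 to -0.779. The points share each library's depth, total and base composition with Erbb2, and the genes were picked out of all genes of a mean log2 CPM of at least 3, so no p is given.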

How the data were processed

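Gene counts of 20 tumors were used as the authors deposited them: paired-end HiSeq reads of poly(A) libraries, trimmed to 100 bases, aligned to mm10 with TopHat2 2.0.12 and counted per gene with featureCounts 1.4.4 within the MapRseq workflow. Whether counting used strand is not given in the sources used here. Yam1 and AY036118 were left out. No count column of another sample was present (0).

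Tumors were ranked by Erbb2 CPM. The 6 highest were compared with the 6 lowest with edgeR 4.0.16 (R 4.3.3): filterByExpr, TMM factors, the quasi-likelihood test, and p-values adjusted by Benjamini-Hochberg across all genes, tested on simulated data first. The gradient used log2 Erbb2 CPM of all 20 tumors. Levels are TMM-normalized CPM, among them the Erbb2 level per kilobase, while all other Erbb2 levels are given as ranked. Chromosome dosage and library measures were compared with two-sided exact permutation tests (924 splits, smallest p 0.0021645). DESeq2 1.42.0 and other alternatives are given in the closing section. The named genes were the 5 of smallest p in each direction and the 10 most and 5 least alike to Erbb2 in Pearson's r, besides members of 30 gene lists (297 genes, 1 found under an older symbol). Of these, 2 genes are not reported here. The tumors compared and the lists were chosen with earlier results of these data known, and 2 lists were added after values were seen. P-values measure the spread between tumors of separate mice. Total counts of 38765682 to 65465755 per library set the precision.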

Additional observations from a re-analysis of the deposited data

Results flagged for a closer look

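In 22 groups of 6 tumors, one tumor of a named gene was looked for that stood apart from the other 5 by Dixon's test, and 2 did, where chance gives about 1.1. Gm10863 in the low Erbb2 group was lowest in Lo_4, at 23.9 CPM, against 33.2 to 38.5 CPM in the others. Eif2s1 in the high Erbb2 group was highest in Lo_1, at 91.7 CPM, against 75.9 to 79.2 CPM in the others.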

How the results depend on the processing

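The count of genes that differed between the 6 highest and 6 lowest Erbb2 tumors, 0 by edgeR's quasi-likelihood test (3059 at an unadjusted p under 0.05), was 758 with Erbb2 as a gradient, 745 by DESeq2, 62 with the leukocyte score as a covariate and 1 with the GC and length trend removed. It was 0 to 12 without each tumor in turn (12 without Hi_2, 1 without Hi_7), and 0 in the other settings. At an unadjusted p under 0.05, 1620 genes differed between the groups with the muscle RNA tumors left out and 2091 when ranked by TMM-normalized CPM. The largest such count was 3763, without the filter on low counts. The count of 758 in the gradient was 0 with the muscle RNA tumors left out, 248 with the GC and length trend removed, 0 with the nuclear RNA score, 0 within Lo, 0 within Hi and 697 with Lo or Hi as a term. Without each tumor in turn it was 119 to 1158. The settings for muscle RNA, GC and length, nuclear RNA, the ranking by TMM-normalized CPM and all those of the gradient were chosen after seeing the data. The cause of these changes was not tested.

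The labels do not say whether the numbers in the sample names mark pairs. Over 9 possible pairs the correlation of deviations was -0.37 to 0.26, above 0.1 in 3, and 2 of 18 tumors correlated best with their own number. These correlations cannot decide it, since paired tumors of separate mice need not be alike in expression. With the replicate block, 0 genes passed between the groups (3103 at an unadjusted p under 0.05) and 0 in the gradient (3903).

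None of the single log2 fold changes that changed sign passed the threshold between the groups in edgeR's test. Of these genes, Tcap passed by DESeq2 (log2 fold change -3.42, adjusted p = 0.0118). The Erbb3 log2 fold change was 0.00058 with the replicate block, 0.0322 with 10 tumors against 10, 0.00653 with the leukocyte score, 0.0533 with library size only and 0.0525 when ranked by TMM-normalized CPM, and -0.0380 to 0.0420 without each tumor. The Egfr log2 fold change was -0.14 with 5 against 5, -0.0281 with 10 against 10, -0.0725 when ranked by TMM-normalized CPM, -0.0546 with the muscle RNA tumors left out and -0.0856 to 0.15 without each tumor. The Dusp6 log2 fold change was 0.00426 with the epithelial score, 0.00726 with library size only, 0.11 with the nuclear RNA score and -0.14 to 0.0563 without each tumor. The Grb7 log2 fold change was -0.0834 with the replicate block and -0.0206 without the muscle RNA tumors, and the Tcap log2 fold change 0.14 without them. With the block the Thra log2 fold change was -0.0448 and the Nr1d1 log2 fold change -0.0774. The Malat1 log2 fold change was -0.25 with the nuclear RNA score, which includes Malat1 itself, so part of this change is built in. The Csn2 log2 fold change was -0.68 with 10 against 10, where the ribosomal RNA locus took 2.05 percentage points more in the high group. The Chr11 dosage, high minus low, was -0.00436 to 0.0157 without each tumor. Of 1565 values of single genes under alternatives, 1491 held both sign and call, and 48 passed only there. Among list medians, 8 moved by more than the spread between tumors and 262 did not. Those that moved include Skeletal muscle, at -2.36 with 10 against 10 and -0.07 without the muscle RNA tumors, and the nuclear RNAs, at 1.03 with the block. Erbb2 counts of 6187 or more make counting error small beside the 1.31-fold difference between the group means. At the lower border, the 0.71 CPM between Hi_11 (10278 reads) and Hi_1 (9749 reads) is smaller than counting error, so the place of Hi_1 in the low group is uncertain.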
